A study of Mus musculus with 4 samples.

Results

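Expression of 10 genes of the interleukin-1 (IL-1) family was examined in mouse blood: the agonist ligands Il1a, Il1b and Il18, the receptor antagonist Il1rn, the receptor chains Il1r1, Il1rap, Il18r1 and Il18rap, the decoy receptor Il1r2, and the inhibitory kinase Irak3. They were chosen by gene symbol. Of 23136 genes in the deposited table, 17823 had values, and all 10 members were among them. Blood came from aging C57BL/6 mice, given as adult in the sample labels and as year-old in the study's methods. The Nar mice received naringenin (Nar), a citrus flavonoid, through the tail vein, and the Ctrl mice received phosphate-buffered saline (PBS), over 30 days in both groups according to the labels. The labels name no transgene or other allele, and 2 libraries per group were used here, numbered 1 and 3 in each group. Whole blood was sequenced after selection of polyadenylated RNA, so the values mix all blood cells, and fewer cells of a type cannot be told apart from less RNA per cell.

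IL-1 is an early signal of inflammation. Interleukin-1 alpha and interleukin-1 beta bind the receptor Il1r1, which then recruits the accessory chain Il1rap and signals through Myd88 and the IRAK kinases to NF-κB. The pathway has brakes at each level: the protein of Il1rn occupies Il1r1 without signaling, Il1r2 binds the ligand but lacks the intracellular signaling domain, and Irak3 (IRAK-M) restrains the kinases below the receptor. Interleukin-18 is a related ligand that acts through Il18r1 and Il18rap, mainly on T cells and natural killer (NK) cells, and is neutralized by the secreted protein of Il18bp. In blood, neutrophils and monocytes are the main sources of interleukin-1 beta, and neutrophils carry much of the decoy receptor.

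The genes fall into few places in the genome (GRCm38, positions from the RefSeq annotation). Il1r2 (chr1:40084692-40125230), Il1r1 (chr1:40222480-40316201), Il18r1 (chr1:40465552-40500854) and Il18rap (chr1:40515362-40551707) form a cluster on chromosome 1. Il1a (chr2:129299609-129310186) and Il1b (chr2:129364569-129371164) are neighbors on chromosome 2, where Il1rn (chr2:24336860-24351491) lies far from both. Il1rap is at chr16:26581509-26730128, Il18 at chr9:50554700-50581841 and Irak3 at chr10:120141648-120202130. The deposited values are per gene and do not separate exons or isoforms.

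The 250 bases before the annotated start site are shown for Il1b, Il1r2 and Il18rap, the members with the highest FPKM in Ctrl mice, each of which has 1 start site in the RefSeq promoter table (GRCm38.p6). The Il1b bases are chr2:129371140-129371389 on the minus strand, those of Il1r2 are chr1:40085843-40086092 on the plus strand, inside the annotated gene span, and those of Il18rap are chr1:40515112-40515361 on the plus strand. Capitals mark matches on either strand to NF-κB (GGNNTTTCC), AP-1 (TGANTCA), C/EBP (TTGCNNAA), PU.1 (GAGGAA), CRE (TGACGTCA) or the TATA box (TATAAA).
Il1b: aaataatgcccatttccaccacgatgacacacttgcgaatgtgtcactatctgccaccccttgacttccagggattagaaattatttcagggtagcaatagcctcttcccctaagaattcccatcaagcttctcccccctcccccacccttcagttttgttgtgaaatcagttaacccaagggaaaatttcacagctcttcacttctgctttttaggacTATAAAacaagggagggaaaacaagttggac
Il1r2: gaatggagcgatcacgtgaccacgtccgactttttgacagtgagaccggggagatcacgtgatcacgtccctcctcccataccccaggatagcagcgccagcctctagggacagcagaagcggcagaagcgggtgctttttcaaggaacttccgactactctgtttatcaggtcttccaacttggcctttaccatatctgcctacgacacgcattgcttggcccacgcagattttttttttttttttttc
Il18rap: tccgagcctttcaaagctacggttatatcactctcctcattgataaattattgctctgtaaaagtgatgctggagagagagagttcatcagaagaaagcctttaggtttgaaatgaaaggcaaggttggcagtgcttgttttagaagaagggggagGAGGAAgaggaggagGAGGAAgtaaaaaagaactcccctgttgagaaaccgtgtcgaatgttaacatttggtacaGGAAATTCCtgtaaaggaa

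In the Il1b window the only match was a TATA box that begins 31 bases before the start site. The Il18rap window held 2 PU.1 matches, which begin 94 and 79 bases before the start site, and 1 NF-κB match at 19 bases, and the Il1r2 window held none of the motifs. Over the windows of all start sites of the 10 members, a PU.1 match was found for 3 members, a TATA box for 3, AP-1 for 2, C/EBP for 1, NF-κB for 2 and CRE for 0. Among 27025 promoters of the same length, 1 per gene, the shares with a match were 23.1% for PU.1, 13% for the TATA box, 6.87% for AP-1, 9.55% for C/EBP, 4.84% for NF-κB and 1.62% for CRE. Members with several start sites had more than 1 chance of a match. A match is a description of letters, and a missing match says only that these letters are not in this window.

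Expression is given as FPKM (fragments per kilobase of transcript relative to all mapped fragments), which is a level per length and allows comparison between genes. How many reads lie behind a value is unknown, which leaves counting error out, and values near 0.01 FPKM are limited by rounding to 2 decimals. Haemoglobin genes made up between 92.6% and 96.4% of the summed FPKM in every library, so all other genes share a small remainder. Across the 5339 genes with a mean of at least 0.5 FPKM, the median difference between Nar and Ctrl mice was -1.07 on the log2 scale, and values of single genes are to be read against it. Fold changes are on log2(FPKM + 0.1), a scale on which low genes change less than in FPKM, and were tested with limma with Benjamini-Hochberg adjustment over all 5339 genes. For a single value, the exact two-sided permutation test of 2 libraries against 2 cannot go below p = 0.33.

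Among the members, Il1b was the most abundant transcript in Ctrl mice and had the largest fall with Nar. Il1r2, Il18rap, Il1rap, Irak3 and Il18r1 also fell. The antagonist Il1rn was low in Nar mice too, but lay under the limit for testing, as did Il1a, Il18 and Il1r1, which were near the bottom of the scale in both groups. Of the 10 members, 6 passed the limit on low values and all 6 of these were called lower at an adjusted p-value under 0.05, where 39.6% of all tested genes were. The mean of Il1rap, Il18r1 and Irak3 in Nar mice was itself under 0.5 FPKM, so they passed through their Ctrl values and the count is no support by itself. The median log2 fold change of the 6 was -2.63. With 1 Ctrl library left out, whether Ctrl 1 or Ctrl 3, 0 members were called, as were 0 of the 5339 genes, and without Nar 1 only Il1b was, with 4.76% of all tested genes; every fold change of the 6 stayed below 0. In 7 of the 10 members both Nar libraries lay below both Ctrl libraries, against 52.7% of the 16382 genes with any value above 0.

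**Figure D1:**
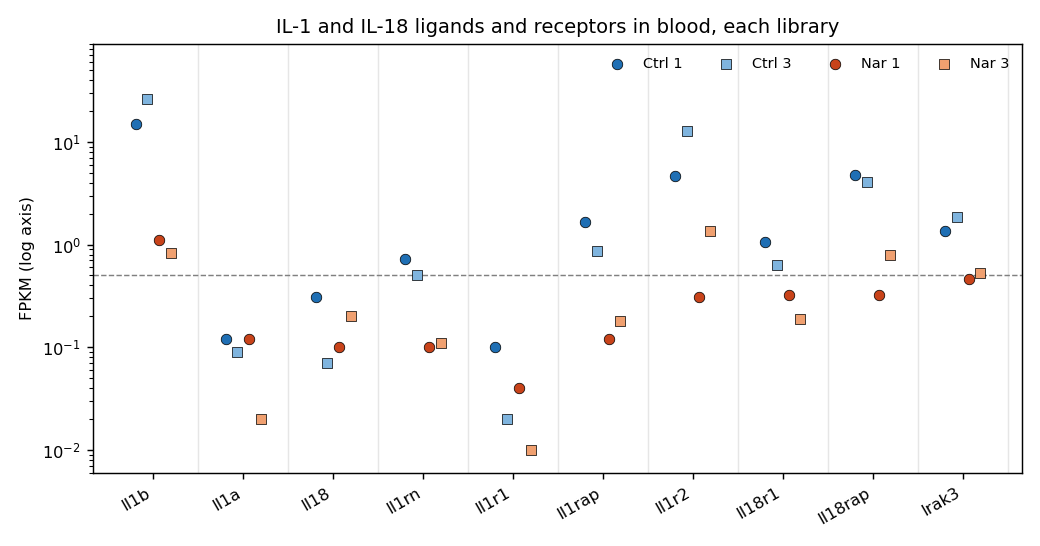
FPKM (log axis) of the 10 members in each of the 4 libraries; 1 point is 1 library, circles are replicate 1 and squares replicate 3, and the dashed line is the mean of 0.5 FPKM needed for testing. Il1b ran from 14.9 to 26.3 FPKM in Ctrl and from 0.83 to 1.12 FPKM in Nar libraries, while Il1a, Il18 and Il1r1 overlapped between the groups.

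Among the agonists, only Il1b was abundant. Il1b (NCBI Gene 16176) was at 14.9 and 26.3 FPKM in Ctrl 1 and Ctrl 3 and at 1.12 and 0.83 FPKM in Nar 1 and Nar 3. Both Ctrl libraries were far above both Nar libraries, with a gap wider than the spread within either group. The mean fell from 20.6 ± 8.05 FPKM (SD, n = 2) to 0.975 ± 0.205 FPKM (SD, n = 2), a 21.1-fold difference of the means. Its log2 fold change (-4.22 ± 0.474 standard error, limma adjusted p = 0.00247) was the 9th largest fall among the 5339 tested genes.

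Il1a (NCBI Gene 16175), whose product is active without cleavage and is released mostly from damaged cells, was at 0.12 and 0.09 FPKM in Ctrl 1 and Ctrl 3 and at 0.12 and 0.02 FPKM in Nar 1 and Nar 3. Il18 (NCBI Gene 16173), which many cells hold as an inactive precursor, was at 0.31, 0.07, 0.1 and 0.2 FPKM in the same order. In both genes the groups overlapped (exact permutation p = 1.0 for each), and no difference was detectable at these levels. Il1b exceeded Il1a 124-fold in Ctrl 1 and 292-fold in Ctrl 3, and 9.33-fold in Nar 1 and 41.5-fold in Nar 3. Rounding alone lets the ratio in Nar 3 lie anywhere between 33 and 55.7.

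The antagonist was far less abundant than Il1b, and higher than Il1a in 3 of the 4 libraries. Il1rn (NCBI Gene 16181) was at 0.72 and 0.5 FPKM in Ctrl 1 and Ctrl 3 and at 0.1 and 0.11 FPKM in Nar 1 and Nar 3. The Nar values were nearly equal to each other and lay below both Ctrl values. The means were 0.61 ± 0.156 and 0.105 ± 0.00707 FPKM (SD, n = 2 each), and the log2 difference was -1.78 (exact permutation p = 0.33, the smallest possible). With a mean of 0.358 FPKM over the 4 libraries it was not tested with limma.

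The decoy receptor was the second most abundant member in Ctrl mice. Il1r2 (NCBI Gene 16178) was at 4.62 and 12.9 FPKM in Ctrl 1 and Ctrl 3 and at 0.31 and 1.35 FPKM in Nar 1 and Nar 3. The groups did not overlap, but both pairs of replicates were far apart, with SDs of 5.87 FPKM in Ctrl and 0.735 FPKM in Nar mice. On the log2 scale it fell by 3.35 ± 0.667 (standard error; limma adjusted p = 0.012). This standard error is the largest among the tested members, and the log2 fold change was -2.44 without Nar 1, -4.26 without Nar 3, -4.08 without Ctrl 1 and -2.61 without Ctrl 3.

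Both chains of the signaling IL-1 receptor, Il1r1 and Il1rap, were lower than the decoy in every library. Il1r1 (NCBI Gene 16177) was at 0.1 and 0.02 FPKM in Ctrl 1 and Ctrl 3 and at 0.04 and 0.01 FPKM in Nar 1 and Nar 3. The groups overlapped (exact permutation p = 0.67), and the lowest of these values is a single step of the rounding. Il1rap (NCBI Gene 16180), the accessory chain that Il1r1 shares with the receptors of interleukin-33 and interleukin-36, was at 1.65, 0.86, 0.12 and 0.18 FPKM in Ctrl 1, Ctrl 3, Nar 1 and Nar 3. Il1rap fell without overlap of the groups, by 2.38 ± 0.461 on the log2 scale (standard error; limma adjusted p = 0.0111).

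Of the interleukin-18 receptor chains, Il18rap was more abundant than Il18r1 in 3 of the libraries and equal to it in Nar 1. Il18rap (NCBI Gene 16174), the signaling accessory chain, was at 4.76 and 4.09 FPKM in Ctrl 1 and Ctrl 3 and at 0.32 and 0.79 FPKM in Nar 1 and Nar 3. The Ctrl libraries were close to each other, and the gene fell by 2.88 ± 0.434 on the log2 scale (standard error; limma adjusted p = 0.00518). Il18r1 (NCBI Gene 16182), the ligand-binding chain, was at 1.05, 0.63, 0.32 and 0.19 FPKM in the same order. Il18r1 fell by 1.39 ± 0.453 on the log2 scale (standard error; limma adjusted p = 0.0406), which is near the median of all tested genes.

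Irak3 (NCBI Gene 73914), which dampens IL-1 and Toll-like receptor signaling in monocytes and macrophages, was at 1.35 and 1.86 FPKM in Ctrl 1 and Ctrl 3 and at 0.46 and 0.53 FPKM in Nar 1 and Nar 3. The groups did not overlap and replicates were close. It fell by 1.5 ± 0.352 on the log2 scale (standard error; limma adjusted p = 0.0192). Among the 6 tested members it and Il18r1 lay closest to the median of all tested genes.

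By mean level in Ctrl mice the order was Il1b, Il1r2, Il18rap, Irak3, Il1rap, Il18r1, Il1rn, Il18, Il1a and Il1r1. Neighbors in this order mostly did not differ beyond their spread: the Ctrl values lay wholly apart only between Il1b and Il1r2, between Il18rap and Irak3, and between Il1rn and Il18. In Nar mice Il1b, Il1r2, Il18rap and Irak3 lay between 0.31 and 1.35 FPKM, with the values of Il1r2 spanning those of the other genes named.

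To set the members against the typical gene, the libraries were also scaled by the median of their ratios, which brings the median difference over the tested genes close to 0. On this scale Il1b was at 10.6, 16.4, 1.51 and 1.39 scaled FPKM in Ctrl 1, Ctrl 3, Nar 1 and Nar 3. It fell by 3.10 ± 0.405 on the log2 scale (standard error; limma adjusted p = 0.0153) and was the only member still called lower, where 0.599% of tested genes were. The log2 fold changes of the other tested members were -2.25 for Il1r2, -1.80 for Il18rap, -1.47 for Il1rap, and -0.45 for both Irak3 and Il18r1. Their limma adjusted p-values were 0.138, 0.104, 0.197, 0.705 and 0.821. Il1rn, which was not tested, kept its groups apart at 0.512 and 0.311 scaled FPKM in Ctrl and 0.135 and 0.184 in Nar mice, while those of Il18r1 overlapped.

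**Figure D2:**
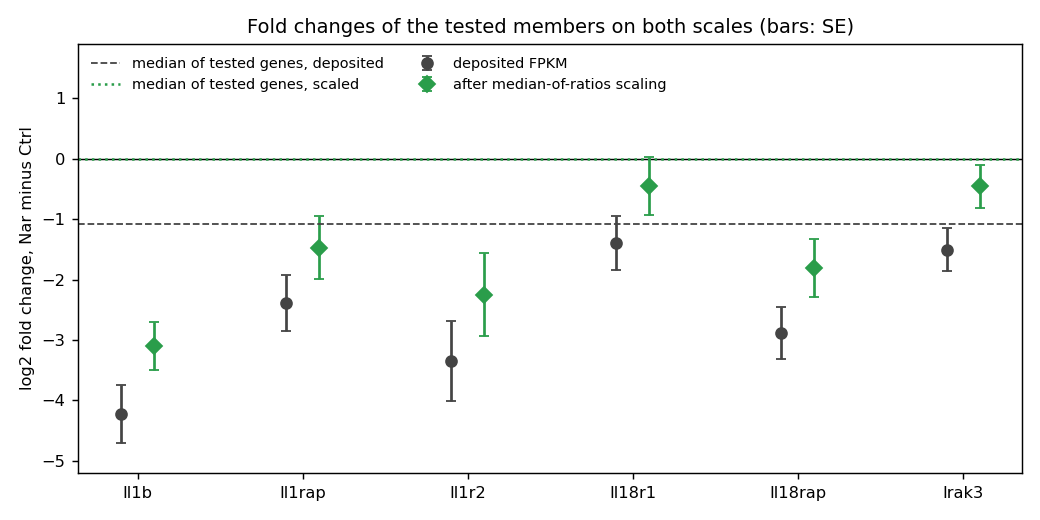
Log2 fold change (Nar minus Ctrl) of the 6 tested members on the deposited FPKM values (grey circles) and after median-of-ratios scaling (green diamonds); error bars are limma standard errors and horizontal lines are the medians over 5339 genes. Il1b lies furthest from the line on both scales, at -4.22 and -3.10, and Il18r1 and Irak3 lie near it.

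Agonist, antagonist and decoy were then compared as ratios of FPKM within each library, which do not change when a whole library is rescaled. The log2 ratios were taken on FPKM + 0.1, which pulls ratios of low values toward 1 and does move with a rescaling, and are given without the added 0.1 as well, a setting chosen after seeing the data. The ratio of Il1b to Il1rn was 20.7 and 52.6 in Ctrl 1 and Ctrl 3, and 11.2 and 7.55 in Nar 1 and Nar 3. Agonist transcripts thus outnumbered antagonist transcripts per length in every library, by less in both Nar libraries than in both Ctrl libraries. On FPKM + 0.1 the log2 ratio was 4.83 ± 0.895 in Ctrl and 2.38 ± 0.327 in Nar mice (SD, n = 2 each), a difference of -2.45 (exact permutation p = 0.33, the smallest possible). On the FPKM ratios themselves it was 5.04 ± 0.951 and 3.20 ± 0.403 (SD, n = 2 each), a difference of -1.84 with the same exact p. Rounding of the low Il1rn values could move the Nar 1 ratio between 10.6 and 11.8 and the Nar 3 ratio between 7.17 and 7.95, which keeps the groups apart.

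The ratio of Il1b to Il1r2 was 3.23 and 2.03 in Ctrl 1 and Ctrl 3, and 3.61 and 0.615 in Nar 1 and Nar 3. Agonist and decoy were thus closer to each other than agonist and antagonist, and the groups overlapped (difference -0.88 on log2(FPKM + 0.1), exact permutation p = 0.67, and -0.78 on the FPKM ratios, exact permutation p = 1.0). Without Nar 3, the only library in which the decoy exceeded the agonist, the difference on log2(FPKM + 0.1) turned to 0.23. The ratio of Il1rn to Il1r2 was 0.156, 0.0387, 0.323 and 0.0815 in Ctrl 1, Ctrl 3, Nar 1 and Nar 3. The antagonist was below the decoy in every library, and the groups overlapped again (difference 1.57 on log2(FPKM + 0.1) and 1.06 on the FPKM ratios, exact permutation p = 0.67 for each).

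The decoy also exceeded both chains of the signaling IL-1 receptor in every library. Il1r2 was 46.2-fold and 646-fold above Il1r1 in Ctrl 1 and Ctrl 3, and 7.75-fold and 135-fold in Nar 1 and Nar 3 on the FPKM scale. Rounding of Il1r1 lets the Ctrl 3 ratio lie between 517 and 862 and that of Nar 3 between 89.7 and 271, and the decoy stays above Il1r1 at either bound. Against Il1rap, the decoy was 2.80-fold and 15.0-fold higher in Ctrl 1 and Ctrl 3 and 2.58-fold and 7.50-fold higher in Nar 1 and Nar 3. In both ratios the replicates numbered 3 were above those numbered 1. The groups overlapped for Il1r2 to Il1rap on either scale. For Il1r2 to Il1r1 they overlapped on the FPKM ratios (log2 difference -2.42, exact permutation p = 0.67) but not on FPKM + 0.1 (-3.03, exact permutation p = 0.33).

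**Figure D3:**
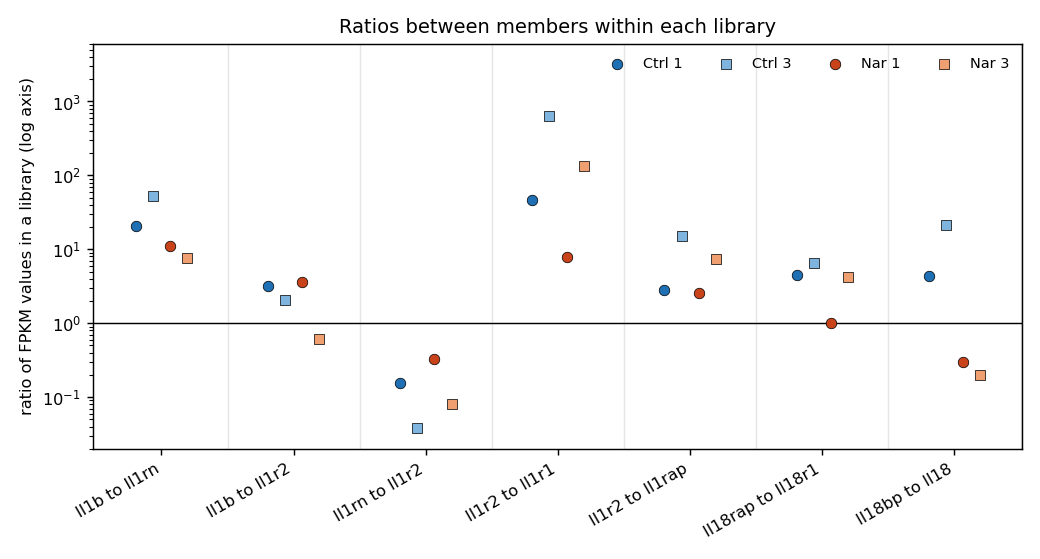
Ratio of the FPKM values of 2 genes in the same library (log axis), 1 point per library, circles for replicate 1 and squares for replicate 3; the line marks equal levels. Il1b to Il1rn is 20.7 and 52.6 in Ctrl against 11.2 and 7.55 in Nar libraries, and Il1b to Il1r2 overlaps between the groups.

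For interleukin-18 the ligand and its soluble antagonist were compared in the same way. Il18bp (NCBI Gene 16068) was at 1.37 and 1.49 FPKM in Ctrl 1 and Ctrl 3 and at 0.03 and 0.04 FPKM in Nar 1 and Nar 3. It fell by 3.50 ± 0.468 on the log2 scale (standard error; limma adjusted p = 0.00427), while Il18 overlapped between the groups. With a Nar mean of 0.035 FPKM it was tested through its Ctrl values, and after median-of-ratios scaling its adjusted p was 0.0614 in limma. The antagonist exceeded the ligand 4.42-fold in Ctrl 1 and 21.3-fold in Ctrl 3, and was below it in Nar mice with ratios of 0.3 and 0.2 (log2 difference -5.31 on the FPKM ratios and -3.39 on FPKM + 0.1, exact permutation p = 0.33 for each). The Il18 values were far apart between the Ctrl libraries themselves, at 0.31 and 0.07 FPKM. The ratio of Il18rap to Il18r1 was 4.53 and 6.49 in Ctrl and 1.0 and 4.16 in Nar libraries.

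Of 47 further genes of the pathway, 42 had values and 28 could be tested. Of these 28, 18 were called lower and 0 higher, and 10 did not pass, against the 39.6% called lower among all tested genes. Of the 18, 10 had a Nar mean under 0.5 FPKM and passed the limit on low values through their Ctrl values, so this count and those of the single steps are no support by themselves. The median log2 fold change of the 28 was -1.33, near the overall median of -1.07. With median-of-ratios scaling 0 of the 28 were called and their median was -0.27.

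The median log2 fold change was -2.97 over the 2 tested genes of the rest of the ligand and receptor family, -2.13 for maturation and release, -1.15 near the receptor, -1.29 at the NF-κB step and -1.07 at the MAP kinase step, and differences between the steps were not tested. Interleukin-1 beta and interleukin-18 are cut to their active forms by caspase-1 in the inflammasome and leave the cell through gasdermin D pores. Casp1 was at 3.03 and 2.3 FPKM in Ctrl and at 0.43 and 0.53 FPKM in Nar mice, and fell by 2.25 ± 0.352 on the log2 scale (standard error; limma adjusted p = 0.00553). Casp4, the caspase that senses cytosolic lipopolysaccharide, fell by 2.46 on the log2 scale, Pycard (the ASC adaptor) by 2.02 and Gsdmd by 1.93. All 4 tested genes of this step were called lower, where 39.6% of all tested genes were, and 0 of them after median-of-ratios scaling. Of the 4, Casp1 and Pycard were tested through their Ctrl values. Nlrp3, at 1.0 and 0.42 against 0.13 and 0.18 FPKM, was under the limit for testing.

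Near the receptor, 4 of 10 tested genes (40.0%) were called lower, close to the 39.6% of all tested genes. Myd88, the adaptor of IL-1 and Toll-like receptors, was at 4.66 and 4.44 FPKM in Ctrl and 0.94 and 0.87 FPKM in Nar mice, and fell by 2.21 ± 0.369 on the log2 scale (standard error; limma adjusted p = 0.00683). Of the kinases, Irak2 (log2 fold change -1.36 ± 0.436 standard error) and Irak4 (-1.48 ± 0.499) were called lower. Both had a Nar mean under 0.5 FPKM and were tested through their Ctrl values. Irak1 was at 2.57, 3.3, 2.18 and 1.67 FPKM in Ctrl 1, Ctrl 3, Nar 1 and Nar 3 and did not pass (-0.58 ± 0.397, limma adjusted p = 0.222). Differences between the kinases were not tested. Peli1, a ubiquitin ligase acting on IRAK proteins, was called lower at -1.53, also tested through its Ctrl values. Tab2, Tab3, Ube2n, Ube2v1 and Tollip did not pass, with log2 fold changes between -1.18 and 0.04.

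At the NF-κB step, 6 of 8 genes were called lower, where 39.6% of all tested genes were. After median-of-ratios scaling 0 of the 8 were called. Of the 6, Nfkbiz and Tnfaip3 had a Nar mean under 0.5 FPKM and were tested through their Ctrl values. Nfkbiz, an inhibitor-like nuclear protein that is itself induced by IL-1, was at 3.37 and 1.43 FPKM in Ctrl and at 0.18 FPKM in both Nar libraries (log2 fold change -3.04 ± 0.446 standard error, limma adjusted p = 0.00488). The feedback inhibitor Tnfaip3 (A20) fell by 2.18 and Nfkbia by 1.44 on the log2 scale. Ikbkb, Chuk and Rela were called lower with values between -1.31 and -1.14, and Nfkb1 and Ikbkg did not pass at -0.93 and -0.82. Of the MAP kinase genes, Mapk14 (-1.76) and Map2k7 (-1.16, tested through its Ctrl values) were called lower, and Map2k4 and Map2k3 did not pass. Single libraries moved some of these values: without Ctrl 1 the log2 fold change of Ikbkb was -0.74 and that of Irak4 -0.89, and without Nar 3 that of Chuk was -0.82 and that of Mapk14 -1.09.

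Of the rest of the ligand and receptor family, 7 of 12 genes had values, and Il1f9 and Il18bp were tested. Interleukin-36 gamma, listed under its older symbol Il1f9, was at 5.79 and 1.19 FPKM in Ctrl 1 and Ctrl 3 and at 0.39 and 0.43 FPKM in Nar 1 and Nar 3, and fell by 2.44 ± 0.614 on the log2 scale (standard error; limma adjusted p = 0.0224). Its Ctrl libraries were far apart, with a log2 fold change of -1.34 without Ctrl 1, and with a Nar mean of 0.41 FPKM it was tested through its Ctrl values. Il33, Il1rl1 (the interleukin-33 receptor) and Il1rl2 (the interleukin-36 receptor) stayed at or under 0.08 FPKM in all 4 libraries, and Sigirr, an inhibitory receptor of the family, was at 0.74, 0.33, 0.24 and 0.22 FPKM.

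**Figure D4:**
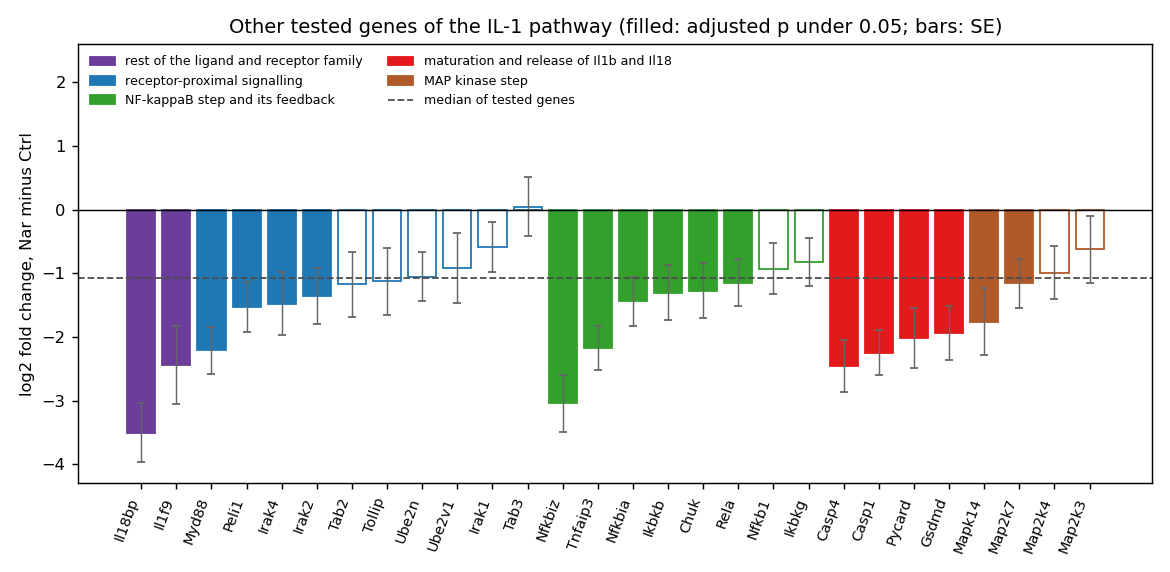
Log2 fold change (Nar minus Ctrl) of the 28 other tested genes of the IL-1 pathway, grouped by step; filled bars passed an adjusted p-value of 0.05 in limma, error bars are standard errors and the dashed line is the median of all tested genes at -1.07. Il18bp (-3.50) and Nfkbiz (-3.04) reach furthest down, and most receptor-proximal genes lie near the line.

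Marker genes of neutrophils were also lower in Nar mice. All 11 neutrophil markers were called lower, with log2 fold changes from -4.49 to -2.87 and a median of -3.77, and 5 of them were also called after median-of-ratios scaling, where 39.6% and 0.599% of all tested genes were called lower. Of the 11, 2 (Camp and Ltf) had a Nar mean under 0.5 FPKM and were tested through their Ctrl values. Their summed level was between 1436 and 1737 FPKM in Ctrl and between 105.1 and 164.4 FPKM in Nar libraries, led by S100a9 and S100a8, and no marker was listed at 0. Monocyte markers summed to between 40.4 and 53.9 FPKM in Ctrl and 8.44 and 24.1 FPKM in Nar libraries, with 2 of 5 tested genes called lower. NK cell markers summed to between 15.5 and 16.0 against 3.23 and 7.13 FPKM, with 1 of 5 called and Klre1 at 0 in Nar 3. For T cells (0 of 5 tested genes called) the sums were between 4.55 and 7.24 against 3.08 and 4.46 FPKM. For B cells (0 of 5 called) the sums overlapped, and erythroid (0 of 5) and basophil markers (0 of 1) were not called either. No platelet marker was called (0 of 6), but the sums lay apart, between 667.1 and 2115 FPKM in Ctrl and between 433.9 and 556.4 FPKM in Nar libraries. Of the haemoglobin genes, Hba-a1 and Hba-a2 were called higher (log2 fold changes 0.28 and 0.21, limma adjusted p = 0.0348 for each, with Hba-a1 at 0.15 without Nar 3) and the other 8 tested were not. Neither was called with values rescaled to a sum of 1000000 (limma adjusted p = 0.0579 and 0.0825) or with limma fitted without its trend (0.519 and 0.62). The haemoglobin share was 95.1% and 92.6% in Ctrl and 95.8% and 96.4% in Nar libraries. The part of any of these markers in the members' differences was not tested.

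Set beside the summed neutrophil markers of the same library, a view chosen after the values were seen, Il1b was at 8.58 FPKM per 1000 FPKM of neutrophil markers in Ctrl 1 and at 18.3 in Ctrl 3, and at 10.7 and 5.05 in Nar 1 and Nar 3, so that the groups overlapped (exact permutation p = 0.67). Il1r2 was at 2.66, 9.0, 2.95 and 8.21 in the same order, and the groups overlapped as well (exact permutation p = 1.0). Of the other 8 members, 7 were higher per neutrophil marker in both Nar libraries than in both Ctrl libraries. For Il1r1 the order rests on 0.0608 in Nar 3 against 0.0576 in Ctrl 1, and rounding of 0.01 FPKM lets the former lie between 0.0304 and 0.0913, so its groups cannot be called apart. Il18rap was closest to level, at 2.74 and 2.85 in Ctrl and 3.05 and 4.81 in Nar libraries, and Irak3 was at 0.777 and 1.30 against 4.38 and 3.22. Since the summed markers are the same divisor for every member and fell between the groups, genes that fell less than the markers rise on this scale by construction. The share of all genes that rise on it was not counted, so the count of 7 is no support by itself.

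**Figure D5:**
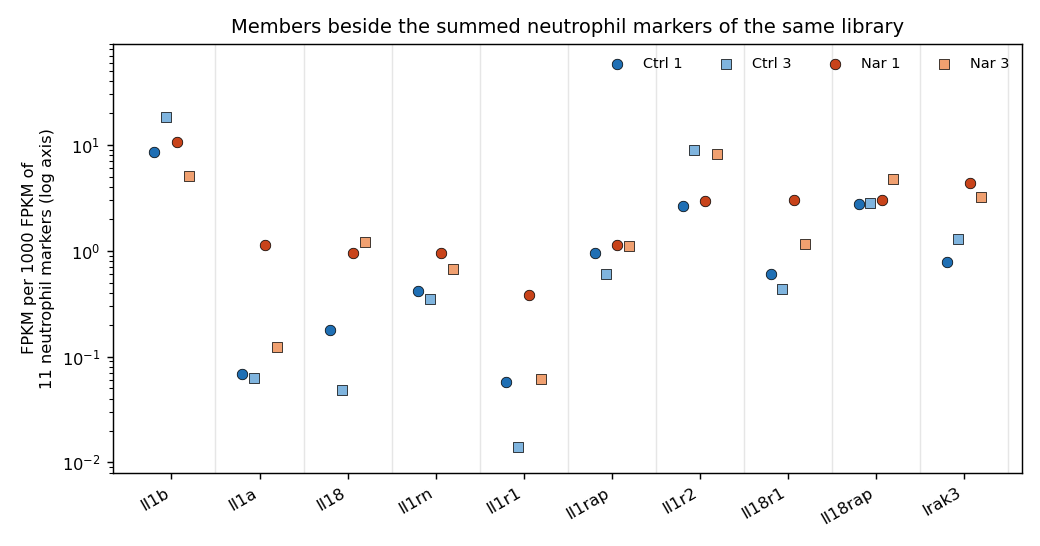
FPKM of each member per 1000 FPKM of the 11 summed neutrophil markers in the same library (log axis), 1 point per library, circles for replicate 1 and squares for replicate 3. Il1b (5.05 to 18.3) and Il1r2 (2.66 to 9.0) overlap between the groups, and the other 8 members plot higher in both Nar libraries, for Il1r1 by less than the rounding of its value in Nar 3. Genes that fell less than the markers rise on this scale by construction.

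The tested genes whose profiles over the 4 libraries were closest to that of Il1b, by Euclidean distance of centered log2 values, were Chil3 (distance 0.29), Gm5483 (0.291) and Ltf (0.466). Chil3 encodes a chitinase-like protein of myeloid cells and was at 30.3, 63.3, 2.96 and 2.37 FPKM in Ctrl 1, Ctrl 3, Nar 1 and Nar 3. Ltf encodes lactoferrin of neutrophil granules and is one of the neutrophil markers. For Il1r2 the closest were 2 genes without a symbol, listed as BGIG10090_48049 (0.585) and BGIG10090_45242 (0.816), and BC100530 (0.899). Distances are over 4 libraries only and are a description.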

How the data were processed

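Blood RNA libraries, 2 labelled Ctrl and 2 labelled Nar, were analysed, with groups and replicate numbers taken from the sample titles. FPKM values, rounded to 2 decimals by the authors, were deposited in 1 column per library; 0 columns were left over. The study's methods name bowtie-2, while the submitters' processing notes name TopHat2, Cufflinks and GRCm38; which tool gave the values is not given in the sources used here. FPKM are not counts, so DEGseq, which the study used on read numbers, could not be run, and read numbers were not recovered from the rounded values. Nothing in the sources used here ties the replicate numbers to animals or days, so p-values measure only the spread between these libraries, which may be technical.

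The 5339 genes averaging 0.5 FPKM or more were tested on log2(FPKM + 0.1) with limma 3.58.1 in R 4.3.3 (lmFit, eBayes with trend), adjusted by Benjamini-Hochberg; called means an adjusted p-value under 0.05. The limma step was also run on simulated data with the same spread for all genes and no shift of the typical gene. The real data differ in both, so that run does not measure the error rate here. Ratios within libraries were tested by exact two-sided permutation. The members and lists were chosen with earlier results of these data known. Genes that could be named were the members, tested pathway genes, the 2 highest markers of each list and the 3 nearest profiles of Il1b and Il1r2; Klre1, Camp, Hba-a1, the Il18bp to Il18 ratio and untested pathway genes were added after their values were seen. Alternatives were a pseudocount of 1 or 0.01, other filters, rescaling to 1000000 (TPM), removal of haemoglobin genes, median-of-ratios scaling, no trend, a replicate block, and each library left out. Gene positions and promoter sequences came from RefSeq (GRCm38.p6), where all 10 members matched by NCBI Gene number. Figures used matplotlib 3.10.9 (Python 3.11.15).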

Additional observations from a re-analysis of the deposited data

How the results depend on the processing

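Members called lower numbered 6 with a pseudocount of 1 or 0.01, with TPM, without the trend and with the replicate block, and 4 of 4 tested with a mean of at least 1 FPKM; the share of all tested genes called lower was between 33.4% and 42.2% in these fits. They numbered 3 with haemoglobin genes removed (Il1b, Il1r2 and Il18rap, where 5.01% of tested genes were called lower), 1 with median-of-ratios scaling (Il1b) and 0 without the filter, where limma called 0 of 16382 genes and 4978 had an unadjusted p-value under 0.05. Leaving out 1 library gave from 0 to 4 members: 0 without Ctrl 1 or without Ctrl 3 (where limma called 0 of all tested genes, with 2682 and 2133 at an unadjusted p-value under 0.05), 1 without Nar 1 (Il1b) and 4 without Nar 3 (where 3.99% of tested genes were called lower). Log2 fold changes of the 6 tested members kept their sign under every alternative run; of the untested members, Il1a turned from -0.33 to 0.14 and Il18 from -0.11 to 0.58 with median-of-ratios scaling. Over these alternatives Il1b ran from -4.63 to -3.10, Il1r2 from -4.26 to -2.25, Il18rap from -3.42 to -1.80, Il1rap from -2.94 to -0.95, Il18r1 from -1.72 to -0.45 and Irak3 from -1.72 to -0.45. The highest limma adjusted p-values were 0.113, 0.138, 0.113, 0.197, 0.821 and 0.705 in the same order.

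Pathway genes called lower numbered 18 of 28; the count was 10 with a mean of at least 1 FPKM (19 tested), 6 without haemoglobin genes, and 0 both without the filter and with median-of-ratios scaling. Leaving out 1 library gave from 0 to 4, with 0 without either Ctrl library. With the replicate block it was 17. The same-numbered libraries deviated with a correlation of -0.153 across genes, so a crossed pairing was added after seeing the data; it called 6 members and 22 pathway genes, and 60.1% of all tested genes, lower. The labels do not say that a number marks a shared animal or day.

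The log2 difference of the Il1b to Il1rn ratio ran from -3.08 to -1.82 with 1 library left out, and was -2.86, -1.94 and -1.84 with a pseudocount of 1, 0.01 or none. That of Il1b to Il1r2 ran from -1.98 to 0.23, reversing without Nar 3, and that of Il1rn to Il1r2 from 0.61 to 2.53. The cause of these changes was not tested. Depth is unknown, which limits Il1a, Il18 and Il1r1.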
